A study of Mus musculus with 10 samples.

Results

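The fibrillar collagens are the chains that build the banded fibers of connective tissue, and 9 of them (Col1a1, Col1a2, Col2a1, Col3a1, Col5a1, Col5a2, Col5a3, Col11a1 and Col11a2) were followed here by gene symbol among the 55401 genes of the deposited count table. All 9 passed the filter on low values, a count over 5 in 3 or more replicates, as did 14815 genes in all. Further fibrillar chains, Col24a1 and Col27a1, are described with the other genes of the pathway. The cells were meningeal lymphatic endothelial cells (LECs), gated as CD45-CD31+PDPN+ from the dura mater of female C57BL/6 mice, 3 months old. Naive mice gave 5 replicates and mice taken after 6 days of sub-chronic variable stress (SCVS), in which foot shock, tail suspension and restraint alternate, gave the other 5. Each replicate was a pool of cells from 3 to 4 animals, and in both groups the meninges were digested with collagenase VIII in the presence of actinomycin D, a blocker of transcription. The comparison asked how the stress altered transcripts of the cells that line meningeal lymphatic vessels.

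Each fibrillar chain is made as a procollagen with a long triple-helical stretch flanked by propeptides. Chains are hydroxylated and folded into trimers in the endoplasmic reticulum, the propeptides are cut off outside the cell, and the trimers then assemble into fibrils that lysyl oxidases crosslink. Type I collagen, of Col1a1 and Col1a2, and type III, of Col3a1, make up the bulk of the fibrils in dura and other soft tissue, where fibroblasts are the main source. Types V and XI sit within fibrils and set their width, and type II is the collagen of cartilage. Initial lymphatic vessels are tethered to the surrounding fibrils by anchoring filaments.

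Reads counted on genes lay between 9984743 and 14094155 per replicate, and 3 counts, the floor below which a gene was not told from an undetected one, corresponded to 0.213 to 0.3005 CPM, the count scaled by the total of its column. This floor covers counting error only, since the reads are not independent molecules. Libraries differed in makeup before any collagen was considered. The summed CPM of 7 pan-endothelial markers was 567.8 in naive replicate 5 and 3895 to 8450 in the other 9 replicates, with Pecam1, Cdh5 and the other markers above 3 counts in all of them. The summed CPM of 9 lymphatic markers was lowest in naive replicate 1, at 74.4, where Prox1 and Pdpn had 0 counts and Lyve1 had 2. In naive replicate 5 it was 196, with 843 counts of Prox1 and 351 of Pdpn but 1 of Lyve1. In the other 8 replicates the sum was 471 to 3243. The library labelled naive replicate 1 thus went against the gate in Pdpn. Naive replicate 5 did not, but had 287 counts of Pecam1, which encodes CD31, against 5870 or more in every other library. The edgeR estimates of the chains and the medians of the pathway lists are also given without naive replicates 1 and 5. Blood endothelial markers summed higher than lymphatic ones in every library, at 313 against 196 CPM in naive replicate 5 and 10273 against 1068 CPM in naive replicate 3. Prox1 had 15 counts in SCVS replicate 1 and 2 in SCVS replicate 5. In each of these libraries 8 of the 9 lymphatic markers were above 3 counts, with Mmrn1 at 11739 and 1932 counts. The blood and lymphatic lists hold different genes, so their sums do not measure the share of each cell type. Purity was not tested, and the libraries other than naive replicates 1 and 5 were not taken as LECs alone. Mitochondrially encoded genes held between 3.73% of the counts, in SCVS replicate 2, and 16.6%, in naive replicate 5.

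Taken as a sum, the 9 chains were at 311, 1282, 307, 310 and 47.0 CPM in naive replicates 1 to 5 and at 56.3, 44.4, 68.4, 80.4 and 110 CPM in SCVS replicates 1 to 5. Naive replicates 1 to 4 thus lay above every SCVS replicate, and naive replicate 5 was between the SCVS values. The naive mean was 451 ± 478 CPM and the SCVS mean 72.0 ± 25.3 CPM (SD, n = 5 each), and without naive replicate 2 the naive mean was 244 CPM. Col1a1, Col1a2 and Col3a1 together held 82.9% to 88.1% of the summed counts in naive replicates 1 to 4, 42.2% in naive replicate 5 and between 31.4% and 97.7% in the SCVS replicates. The remaining 6 chains summed to 53.2, 187, 36.5, 41.9 and 27.2 CPM in naive replicates 1 to 5 and to 38.6, 21.7, 42.8, 9.52 and 2.50 CPM in SCVS replicates 1 to 5, so that for them the groups overlapped more. In pooled cells, fewer cells of one type and less RNA per cell cannot be told apart.

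**Figure D1:**
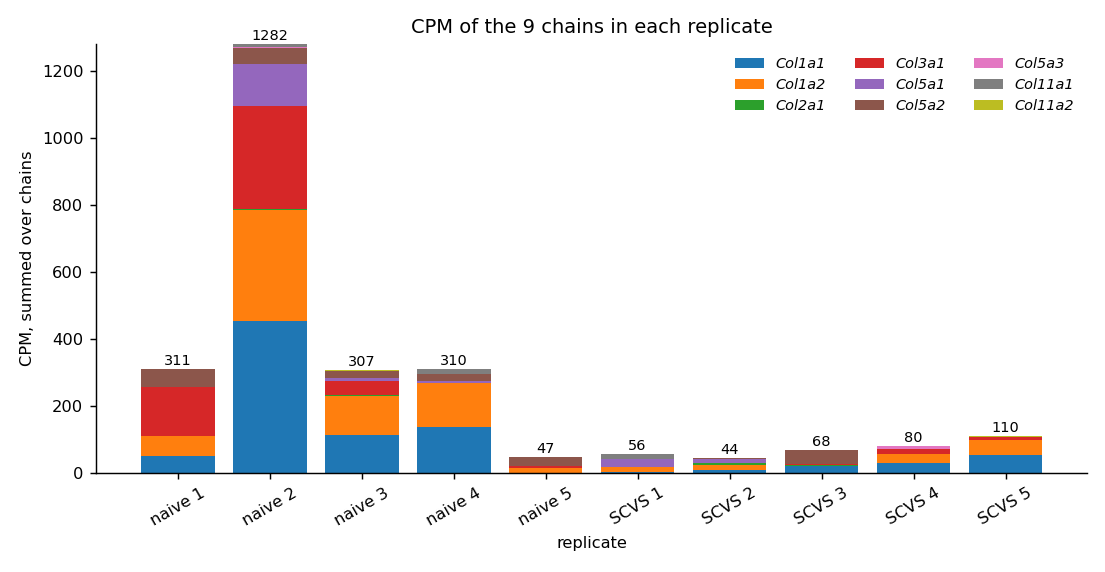
Stacked bars give the CPM (y axis, from 0) of each of the 9 chains in each replicate (x axis), colored by chain, with the sum printed above each bar. Naive replicate 2 reached 1282 CPM, naive replicates 1, 3 and 4 stood between 307 and 311 CPM, and naive replicate 5 stood with the SCVS replicates, which ranged from 44.4 to 110 CPM.

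Markers of other cell types that the gate could hold were read in the same libraries. The summed CPM of 10 fibroblast markers ranged from 205 to 1338 in naive replicates (median 623) and from 58.1 to 1665 in SCVS replicates (median 299), none of the 10 was at 0 throughout a group, and naive replicate 5 had the lowest naive value. Dcn, the most abundant of them over all replicates, had 11569 counts in SCVS replicate 5 and 0 in SCVS replicate 1. The 9 mural markers ranged from 791 to 7802 in naive and from 458 to 5929 in SCVS replicates, and none was at 0 throughout a group. The 8 bone markers ranged from 49.4 to 443 and from 25.5 to 364, with Dmp1 at 0 in every replicate and Ibsp and Phex at 0 in every SCVS replicate. The 6 cartilage markers ranged from 55.3 to 125 and from 8.81 to 97.9, with Matn1 at 0 throughout. The 6 arachnoid markers ranged from 87.5 to 172 and from 95.4 to 286, and the 8 blood endothelial markers from 313 to 10273 and from 5219 to 9324. The 7 leukocyte markers ranged from 7.77 to 367 in naive and from 122 to 3446 in SCVS replicates. Ptprc, which encodes the CD45 that the gate excludes, had 27, 0, 0, 113 and 404 counts in SCVS replicates 1 to 5. It had at most 1 count in any naive replicate. Lyz2 had 41004 counts in SCVS replicate 4. SCVS libraries were left out only 1 at a time, and not for these reads. Cd3e among the leukocyte markers was at 0 in every naive replicate. The part of these cells in the collagen levels was not tested.

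Between SCVS and naive mice, 8 of the 9 chains had a log2 fold change below 0 in edgeR, where 51.8% of all tested genes did, and their median was −1.89, against −0.03 over all tested genes. None of the 9 chains passed an adjusted p of 0.1 (quasi-likelihood test of edgeR, adjusted by Benjamini-Hochberg over the 14815 genes), and 0% of all tested genes passed it, although 460 genes had an unadjusted p under 0.05. At an unadjusted p under 0.05, 2 of the 9, Col1a2 and Col3a1, were lower in SCVS mice in edgeR, against 1.17% of all tested genes. DESeq2, the tool of the study, gave no p for Col5a1 and Col5a3 and called 0 of the other 7 chains at an adjusted p of 0.1, against 0.769% of all tested genes (114 genes), and had 3 of the chains, Col1a1, Col1a2 and Col3a1, lower at an unadjusted p under 0.05, against 2.0% of all tested genes. The paper, from its own DESeq2 run at the same threshold, reports Col1a2 and Col3a1 as significantly lower after stress. DESeq2 here gave them an adjusted p of 0.253 and 0.435, and the source of this difference was not tested. Limma with voom called 0 of the 9 and 2 genes in all, and had 6 of the 9 below 0, where 46.0% of all tested genes were. The exact permutation test of log2(CPM + 1), two-sided, put 2 of the 9, Col1a2 and Col5a2, lower at p under 0.05, against 1.47% of all tested genes. No chain separated the groups in CPM, which 0.182% of all tested genes did with lower values in SCVS mice. With naive replicates 1 and 5 left out, an alternative chosen after the values were seen, Col5a3, the 1 chain that was higher with all replicates, no longer passed the filter, the 8 chains still tested were lower with a median of −2.14, and 0 passed the adjusted threshold in edgeR.

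**Figure D2:**
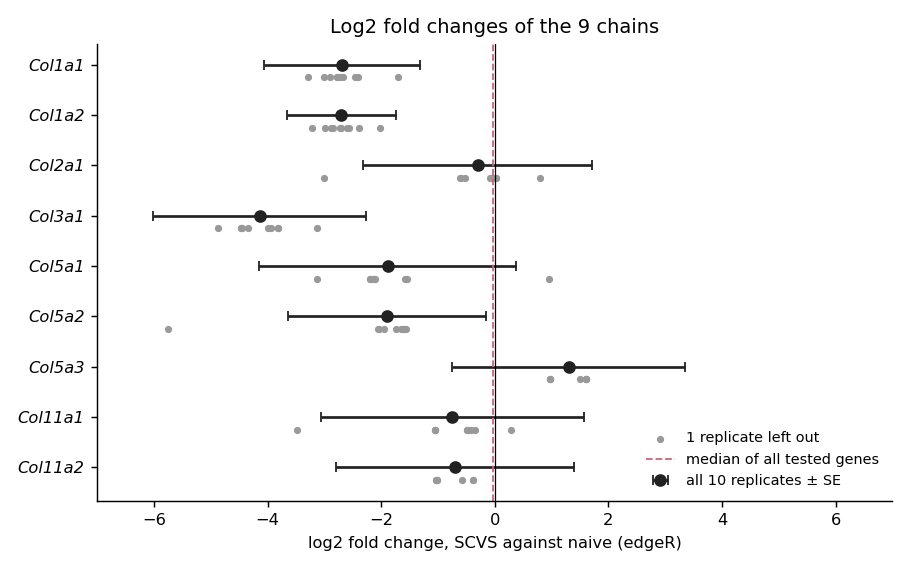
Black points give the log2 fold change of each chain (x axis, SCVS against naive, edgeR) with its standard error, gray points the same with 1 replicate left out, and the dashed line the median of all tested genes (−0.03). Col1a1, Col1a2, Col3a1 and Col5a2 stayed below 0 without any single replicate, whereas Col2a1, Col5a1 and Col11a1 crossed 0.

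Per length, with the longest coding mRNA of the GENCODE M1 annotation as the length, the chains ran in naive mice from Col1a1 (25.5 ± 30.1 CPM per kb, SD, n = 5), Col1a2 (24.5 ± 22.7), Col3a1 (18.03 ± 23.5), Col5a2 (5.06 ± 2.41) and Col5a1 (3.29 ± 6.37) down to Col11a1 (0.649 ± 0.924), Col2a1 (0.298 ± 0.395), Col11a2 (0.128 ± 0.286) and Col5a3 (0.0962 ± 0.161). In SCVS mice the order began with Col1a1 (3.89 ± 3.39 CPM per kb), Col1a2 (3.79 ± 3.03), Col5a2 (1.34 ± 2.79), Col3a1 (1.01 ± 1.17) and Col5a1 (0.931 ± 1.34). In these orders neighbors differed by less than the larger of their SDs, so that no step between adjacent chains exceeded the spread of the replicates.

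**Figure D3:**
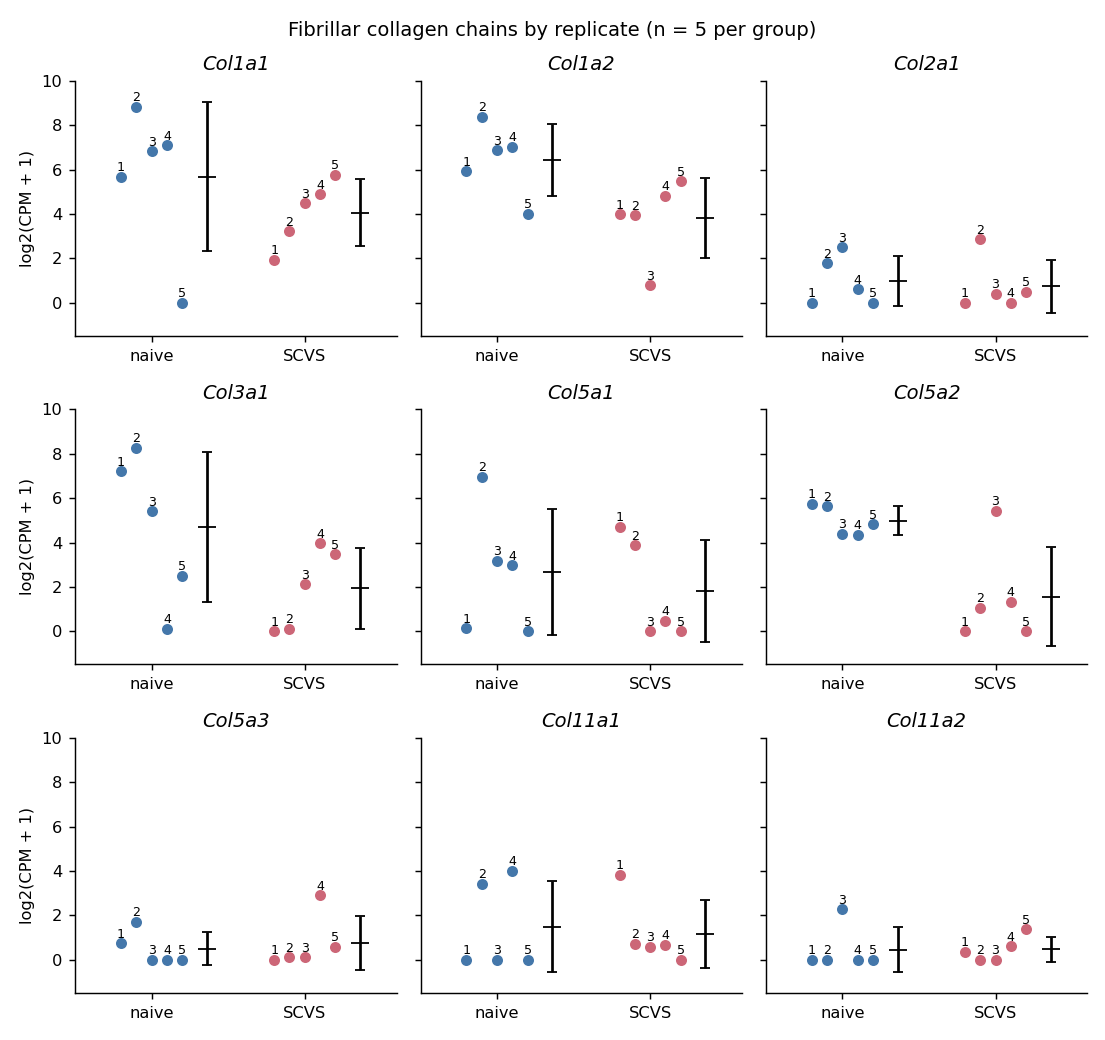
Each panel gives 1 chain, with log2(CPM + 1) on the y axis, 1 numbered point per replicate (blue naive, red SCVS) and, beside the points, the mean and SD of the group (n = 5). Naive replicate 5 is at 0 for Col1a1, and SCVS replicate 3 lies among the naive values for Col5a2.

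Type I collagen is the main load-bearing fibril of dura. Col1a2 (ENSMUSG00000029661, chr6:4505618-4541543 in GRCm38.p6) encodes its second chain and was at 60.4, 332, 117, 131 and 15.2 CPM in naive replicates 1 to 5 and at 14.8, 14.4, 0.730, 27.5 and 43.8 CPM in SCVS replicates 1 to 5. Naive replicates 1 to 4 lay above every SCVS replicate, and 3 SCVS replicates lay below every naive one. The mean level was 131 ± 121 and 20.2 ± 16.2 CPM (SD, n = 5 each), a ratio of 6.47 (3.99 without naive replicate 2), and the log2 fold change was −2.70 (standard error 0.96) with an adjusted p of 0.975 in edgeR and 0.253 in DESeq2. The difference in mean log2(CPM + 1) was −2.64 (exact permutation test, two-sided, p = 0.0318, adjusted over all tested genes to 1.0). That unadjusted p was between 0.0556 and 0.0794 (exact permutation test) when any 1 of naive replicates 1 to 4 or of SCVS replicates 1 to 3 was left out, and 0.0159 without naive replicate 5. Without naive replicates 1 and 5 edgeR gave −3.25, with a standard error of 0.93 and an adjusted p of 1.0.

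Col1a1 (ENSMUSG00000001506, chr11:94936224-94953042) encodes the chain that enters each type I trimer in a double dose and was at 49.99, 456, 113, 137 and 0 CPM in naive replicates 1 to 5 and at 2.84, 8.30, 21.5, 28.8 and 53.9 CPM in SCVS replicates 1 to 5. Naive replicates 2 to 4 lay above every SCVS replicate, naive replicate 1 lay just under SCVS replicate 5, and naive replicate 5, with no Col1a1 read, was the lowest of all. The mean level was 151 ± 179 and 23.1 ± 20.1 CPM (SD, n = 5 each), a ratio of 6.55 (3.25 without naive replicate 2 and 9.83 without SCVS replicate 5), and edgeR gave −2.69 on the log2 scale, with a standard error of 1.37 and an adjusted p of 1.0. The difference in mean log2(CPM + 1) was −1.62 over all replicates (exact permutation test, two-sided, p = 0.357) and −3.05 without naive replicate 5 (exact permutation test, p = 0.0238). Without naive replicate 2 it was −0.84 (exact permutation test, p = 0.635), with −1.70 in edgeR, and limma with voom gave −1.02 over all replicates. Naive replicate 5 is also the library with the lowest endothelial markers. Without naive replicates 1 and 5 edgeR gave −3.31, with a standard error of 0.87 and an adjusted p of 1.0.

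The 2 chains of type I collagen were counted at similar levels in some replicates and far apart in others. In naive replicates 1 to 4 the ratio of Col1a1 to Col1a2 counts was 0.828, 1.37, 0.961 and 1.05. In SCVS replicates 1 to 5 it was 0.191, 0.577, 29.4, 1.05 and 1.23. The ratio of counts stayed between 0.577 and 1.37 in the 7 replicates with at least 50 counts of both. That limit itself drops replicates in which 1 chain was low, so the narrow range is in part set by it. Per length, the median ratio over the 9 replicates with more than 3 counts of both was 0.944. The replicates outside this range were SCVS replicate 3, with 265 Col1a1 and 9 Col1a2 counts, SCVS replicate 1, with 40 and 209, and naive replicate 5, with 0 and 202.

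**Figure D4:**
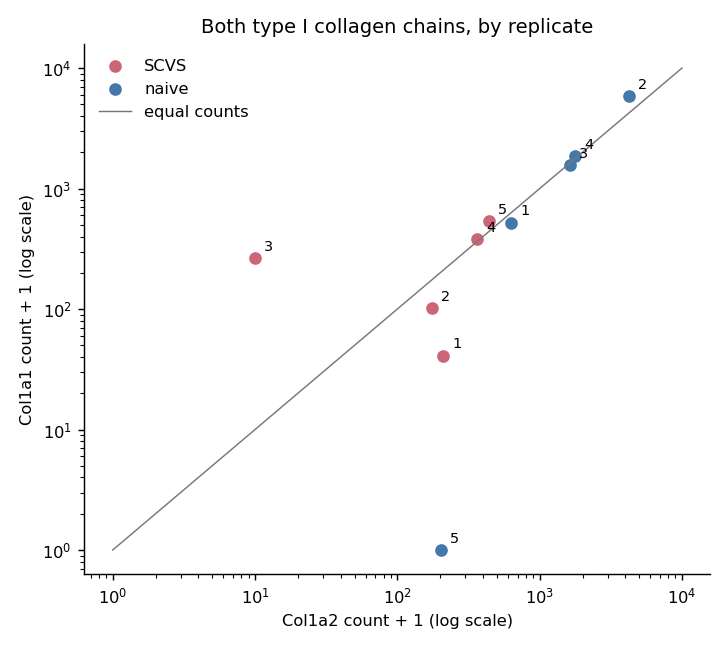
Each point is 1 replicate, with its Col1a2 count plus 1 on the x axis and its Col1a1 count plus 1 on the y axis (both log scales), numbered and colored by group, and the line marks equal counts. Naive replicates 1 to 4 and SCVS replicates 4 and 5 lie near the line, while naive replicate 5 (0 and 202 counts) and SCVS replicate 3 (265 and 9 counts) lie on opposite sides of it.

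The promoter windows of Col1a2 and Col3a1 are shown because these chains had the most negative log2 fold changes of the 9 in edgeR. RefSeq (GRCm38.p6) gave such windows for 6 of the 9 chains, Col1a2, Col3a1, Col5a1, Col5a3, Col11a1 and Col11a2. The windows of Col5a1, Col5a3, Col11a1 and Col11a2 run into the gene places given below. Their motifs need not all lie before the start of the gene. The 250 bases before the start of Col1a2 (chr6:4505368-4505617, plus strand) and of Col3a1 (chr1:45311288-45311537, plus strand) are given 5′ to 3′, with CCAAT, or its reverse complement ATTGG, in capitals.
Col1a2: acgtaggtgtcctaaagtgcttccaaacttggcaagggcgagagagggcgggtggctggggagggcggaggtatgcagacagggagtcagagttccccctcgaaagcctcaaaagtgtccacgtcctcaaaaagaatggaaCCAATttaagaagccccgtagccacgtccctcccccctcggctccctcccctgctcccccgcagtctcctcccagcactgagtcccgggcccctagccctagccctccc
Col3a1: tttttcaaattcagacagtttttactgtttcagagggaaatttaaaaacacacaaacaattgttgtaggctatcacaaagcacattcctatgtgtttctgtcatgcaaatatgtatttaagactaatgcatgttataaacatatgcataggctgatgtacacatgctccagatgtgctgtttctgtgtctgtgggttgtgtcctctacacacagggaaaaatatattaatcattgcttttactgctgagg
CCAAT on either strand is held by 33.8% of the 32851 promoter windows of the same length, and by those of Col1a2, Col5a3 and Col11a1 here. In the Col1a2 window it begins 109 bases before the start, and the Col3a1 window holds none. GGGCGG, the core of the GC box, is held on either strand by 32.7% of all windows and by 5 of the 6, all but that of Col3a1. TATAAA is held on either strand by 12.4% of all windows and by those of Col3a1 and Col11a2. The windows differed in base composition, with 62.0% G or C for Col1a2 and 35.2% for Col3a1, and the searched motifs do not overlap each other in sequence.

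Type III collagen, a homotrimer of the Col3a1 chain, is laid down in the same fibrils as type I and is prominent in extensible tissue and vessel walls. Col3a1 (ENSMUSG00000026043, chr1:45311538-45349706) was at 147, 309, 41.2, 0.0737 and 4.65 CPM in naive replicates 1 to 5 and at 0, 0.0822, 3.33, 14.6 and 10.1 CPM in SCVS replicates 1 to 5. Naive replicates 1 to 3 lay above every SCVS replicate, and the other naive replicates fell among the SCVS values. The ratio of means, 17.8, was the highest of the 9 (8.58 without naive replicate 2 and 29.7 without SCVS replicate 4), but the log2 fold change of −4.14 had a standard error of 1.88, with an adjusted p of 1.0 in edgeR and 0.435 in DESeq2. The difference in mean log2(CPM + 1) was −2.76 (exact permutation test, two-sided, p = 0.151), and it was −3.91 without naive replicate 4 (exact permutation test, p = 0.0397) and −1.87 without naive replicate 2 (exact permutation test, p = 0.31), where edgeR gave −3.13. Without naive replicates 1 and 5 edgeR gave −4.32, with a standard error of 2.04. Naive replicate 4 had 1 Col3a1 count beside 1859 of Col1a1, so that the chains of types I and III did not run together in every library.

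Type V collagen is a minor component that starts fibrils and limits their diameter. Col5a2 (ENSMUSG00000026042, chr1:45374331-45503282) was the most even of the chains in naive mice, at 52.4, 48.9, 19.9, 19.4 and 27.2 CPM in replicates 1 to 5, and was at 0, 1.07, 42.0, 1.51 and 0 CPM in SCVS replicates 1 to 5. In SCVS mice 4 of 5 replicates lay below every naive replicate, and SCVS replicate 3 lay among the naive ones. The mean level was 33.6 ± 16.0 and 8.91 ± 18.5 CPM (SD, n = 5 each), and edgeR gave −1.89 on the log2 scale, with a standard error of 1.74 and an adjusted p of 1.0. The difference in mean log2(CPM + 1) was −3.43 (exact permutation test, two-sided, p = 0.0318, adjusted over all tested genes to 1.0). Without naive replicates 1 and 5 its unadjusted p was 0.0893 (exact permutation test), and edgeR gave −1.67. SCVS replicate 3 decided the size in edgeR, since without it the estimate was −5.76, with a standard error of 1.80 and an adjusted p of 1.0. Limma with voom, which weighs log values, gave −5.51 with all replicates (standard error 1.55; adjusted p = 0.79).

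Col5a1 (ENSMUSG00000026837, chr2:27886381-28039510, overlapped by the RefSeq gene Gm13372) encodes the main partner of Col5a2 and was at 0.096, 123, 8.09, 6.85 and 0 CPM in naive replicates 1 to 5 and at 25.1, 13.6, 0, 0.378 and 0 CPM in SCVS replicates 1 to 5. Most of the naive level came from replicate 2, and the groups overlapped. The edgeR estimate was −1.89 on the log2 scale, with a standard error of 2.26 and an adjusted p of 1.0, and it was 0.96 without naive replicate 2 and −2.62 without naive replicates 1 and 5. Col5a1 and Col5a2 were not high in the same libraries: SCVS replicates 1 and 2 had 354 and 166 counts of Col5a1 with 0 and 13 of Col5a2, and SCVS replicate 3 had 0 with 517. Col5a3 (ENSMUSG00000004098, chr9:20770050-20815117), a rarer type V chain, was above 3 counts in naive replicates 1 and 2, at 0.672 and 2.27 CPM, and in SCVS replicates 4 and 5, at 6.50 and 0.501 CPM. It was the 1 chain with a positive log2 fold change, 1.30, smaller than its standard error of 2.06.

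The chains of types II and XI, which share the fibrils of cartilage, were close to the floor in most libraries. Col2a1 (ENSMUSG00000022483, chr15:97975602-98004724, overlapped by Gm46536) was above 3 counts in 3 naive and 3 SCVS replicates, with at most 4.65 CPM in naive and 6.24 CPM in SCVS mice. Its log2 fold change was −0.30 (standard error 2.01). Col11a1 (ENSMUSG00000027966, chr3:114030479-114220756) was at 9.71 and 15.2 CPM in naive replicates 2 and 4 and at 0 in the other 3, and was at 13.2, 0.657, 0.487, 0.605 and 0 CPM in SCVS replicates 1 to 5. Its log2 fold change was −0.75 (standard error 2.32). Col11a2 (ENSMUSG00000024330, chr17:34038919-34066684) had 54 counts in naive replicate 3 and none in the remaining naive libraries, against counts of 4, 0, 0, 7 and 16 in SCVS replicates 1 to 5, with a log2 fold change of −0.70 (standard error 2.09). For Col11a2 the difference in mean log2(CPM + 1) was 0.01, so that its direction depended on the scale. Without naive replicates 1 and 5 edgeR gave −1.03 for Col2a1, −1.48 for Col11a1 and −1.42 for Col11a2. These 3 chains had an adjusted p of 1.0 in edgeR, and differences between the groups were not detectable at these counts.

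The enzymes and partners of the fibrillar chains did not share 1 pattern. Of 20 genes that fold and modify procollagen, 19 were tested, 8 with lower and 11 with higher values in SCVS mice, and their median log2 fold change was 0.46. It was −0.12 without naive replicates 1 and 5, with 12 genes lower and 7 higher. P4hb, the shared subunit of the prolyl 4-hydroxylases, was the most abundant of them, with a naive mean of 334 ± 141 and an SCVS mean of 389 ± 140 CPM (SD, n = 5 each). Colgalt2, a collagen galactosyltransferase, was at 15.0 ± 16.4 and 65.6 ± 49.8 CPM, with a log2 fold change of 2.09 (standard error 1.38), and Crtap, a partner of prolyl 3-hydroxylase, was at 29.6 ± 19.3 and 74.5 ± 33.3 CPM, with 1.29 (standard error 0.87; adjusted p = 1.0 for both in edgeR). P4hb and Crtap were above 3 counts in every replicate of both groups, and Colgalt2 in every SCVS replicate and in 3 naive ones.

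Of 13 genes that cut propeptides or crosslink fibrils, 8 were tested, 6 lower and 2 higher, with a median log2 fold change of −1.34, which was −0.23 without naive replicate 2, over 7 genes, and −1.64 without naive replicates 1 and 5. Adamts2 encodes the enzyme that removes the amino-terminal propeptide of procollagens I and III. Its counts were 152, 401, 91, 37 and 0 for naive replicates 1 to 5, against 0, 1, 0, 0 and 0 for the SCVS replicates. The naive mean of 11.04 ± 12.6 CPM (SD, n = 5) makes the SCVS level at least 44.9-fold lower, against the mean CPM of 3 counts in each of those libraries, and at least 24.2-fold lower without naive replicate 2. Naive replicates 1 to 4 stood far above all SCVS replicates, and naive replicate 5 was again with them. Its adjusted p was 0.964 in edgeR and 0.0072 in DESeq2. Adamts2 was the 1 gene of the 66 tested in the 7 pathway lists that DESeq2 called, or 1.52%, against 0.769% of all tested genes. It passed the filter on low values through its naive replicates alone. Its bound and p-values therefore describe a gene let in by its high naive level. Pcolce, an enhancer of the removal of the carboxy-terminal propeptide, was at 44.3 ± 46.2 and 12.9 ± 10.9 CPM, and edgeR gave −1.77 on the log2 scale, with a standard error of 1.31.

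Of 14 fibril-binding proteins, 13 were tested, 10 lower and 3 higher, with a median of −0.41, which was −0.03 without naive replicate 2 and −0.94 without naive replicates 1 and 5. Col14a1, a collagen that decorates type I fibrils, was at 301, 29.0, 74.6, 19.0 and 0 CPM in naive replicates 1 to 5 and at 0, 0.822, 0, 6.88 and 12.3 CPM in SCVS replicates 1 to 5, and edgeR gave −4.44 on the log2 scale, with a standard error of 2.03 and an adjusted p of 1.0. As for Col1a2, naive replicates 1 to 4 lay above every SCVS replicate. Postn, periostin, was at 55.8 ± 84.4 and 8.26 ± 16.7 CPM, whereas Sparc, a collagen-binding glycoprotein that endothelial cells also make, was at 1399 ± 675 and 1311 ± 388 CPM (SD, n = 5 each), with a log2 fold change of −0.15 (standard error 0.43).

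Of 10 collagen receptors, 7 were tested, 3 lower and 4 higher, with a median of 0.03, which lay between −0.25 and 0.72 with 1 replicate left out and at 0.94 without naive replicates 1 and 5. Itgb1, the shared beta chain of the collagen-binding integrins, was at 300.2 ± 129 and 305 ± 72.2 CPM, and Mrc2, an endocytic collagen receptor, at 4.46 ± 5.74 and 0.618 ± 1.21 CPM. Itga11, an integrin chain for fibrillar collagen, had at most 3 counts in any naive replicate, against counts of 267, 0, 0, 112 and 9 for SCVS replicates 1 to 5, a mean at least 23.9-fold higher than the floor of 3 counts, and at least 9.89-fold higher without SCVS replicate 1. Its SCVS values overlapped the naive ones in 2 replicates, and its adjusted p was 1.0 in edgeR and 0.584 in DESeq2. Itga11 passed the filter through its SCVS replicates alone, so its bound and p-values describe a gene let in by its high SCVS level.

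Of 9 enzymes that degrade collagen, 5 were tested, 3 lower and 2 higher, with a median of −2.50. This median rested on naive replicate 2, where Mmp2 had 1307 counts and Mmp13 had 915. Without that replicate it was 0.47 over 4 genes, the mean of Mmp2 was 0.0894 CPM in naive and 1.89 CPM in SCVS mice, and that of Mmp13 was 0.774 and 0.702 CPM. It was −0.88 without SCVS replicate 3, −0.89 without SCVS replicate 4 and −2.61 without naive replicates 1 and 5. Mmp13, a collagenase, was above 3 counts in 2 replicates of each group, at 15.0 ± 31.7 and 0.702 ± 1.26 CPM, Mmp2, a gelatinase, was at 20.5 ± 45.7 and 1.89 ± 3.08 CPM, and Mmp14, a membrane-bound collagenase, was at 26.8 ± 35.99 and 36.7 ± 20.1 CPM (SD, n = 5 each). Of 14 regulators of collagen transcription, 13 were tested, 7 lower and 6 higher, with a median of −0.00 (−0.02 without naive replicates 1 and 5). Tgfbr1 and Tgfbr2, the receptors of TGF-beta, were at 14.0 ± 14.4 and 57.1 ± 40.9 CPM and at 233 ± 125 and 353 ± 145 CPM (naive and SCVS, SD, n = 5 each). Ccn2, a target of TGF-beta, ranged from 0.15 to 1312 CPM in naive replicates and from 60.5 to 648 CPM in SCVS replicates. Of the other fibrillar chains, Col27a1 was at 5.69 ± 9.68 and 3.26 ± 4.93 CPM, with a log2 fold change of −0.91 (standard error 2.04), which was 1.07 without naive replicate 2 and −1.58 without naive replicates 1 and 5, and Col24a1 had a single read in naive mice and none in SCVS mice. None of the 66 tested genes in the 7 lists passed an adjusted p of 0.1 in edgeR. Adamts2 and Itga11, each let in by the filter through 1 group alone, had an unadjusted p under 0.05 in edgeR. That is 3.03% of the list genes, against 3.1% of all tested genes.

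**Figure D5:**
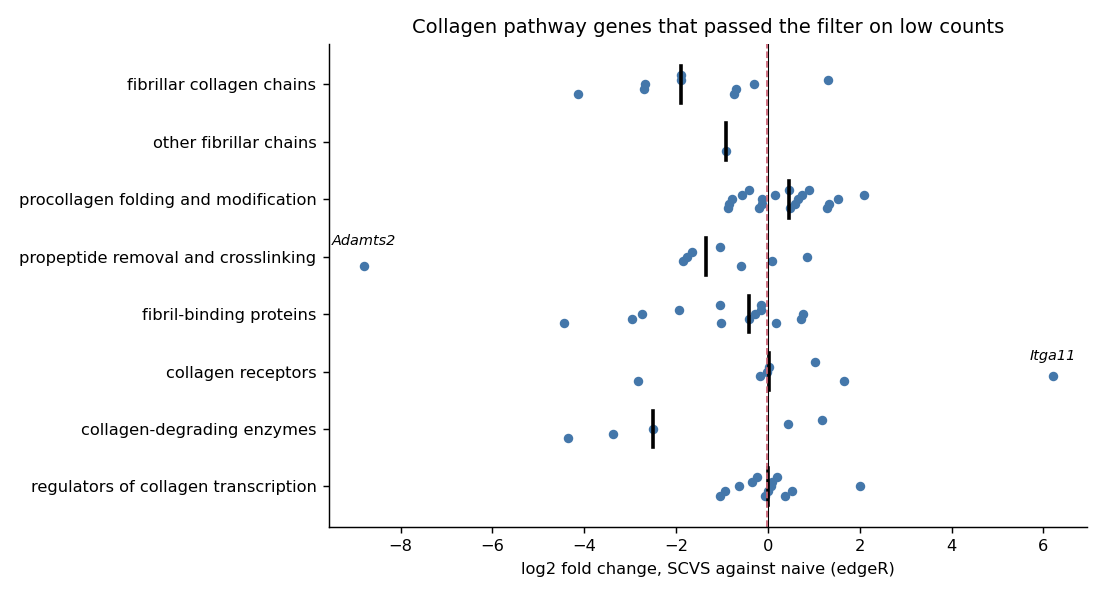
Each point is 1 tested gene, with its log2 fold change on the x axis (SCVS against naive, edgeR) and its list on the y axis, shifted vertically only to keep points apart, black bars give the median of each list, and the dashed line gives the median of all tested genes (−0.03). The medians ran from −2.50 for collagen-degrading enzymes to 0.46 for procollagen folding and modification, with Adamts2 and Itga11 farthest from 0. Without naive replicate 2 the median of the collagen-degrading enzymes was 0.47.

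The genes whose pattern over the 10 replicates was most like that of a chain were found by the root mean square difference of standardized log2(CPM + 1), which is 0 for equal patterns. Nearest to Col3a1 were Postn (0.42), Unc5c (0.42), Gpatch2 (0.496), Acvr1 (0.499) and Ccdc3 (0.503). Nearest to Col1a2 were Nagpa (0.512), Dkc1 (0.527), Lin37 (0.575), Ercc5 (0.578) and Chd2 (0.583), and nearest to Col1a1 were Togaram1 (0.41), Degs2 (0.419), Rps3a1 (0.431), Slc38a5 (0.437) and Gnai3 (0.438). No other fibrillar chain was among the nearest 5 of any of the 3. Among the 14815 tested genes, Col1a1 came at rank 215 for Col1a2, Col1a2 at rank 334 for Col1a1, and Col1a1 at rank 388 for Col3a1, with differences of 0.802, 0.802 and 0.93. Such distances rest on 10 libraries and are a description.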

How the data were processed

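RNA of sorted meningeal LECs from 5 naive and 5 SCVS replicates was amplified by the authors with a whole-transcriptome kit and sequenced in pairs. The authors deposited raw counts, not normalized, for each gene in each replicate. The submitters' processing notes name cutadapt 1.9.1, HISAT2 2.0.1, HTSeq 0.6.1 and the build GRCm38, whereas the paper's methods name mm9, and 22812 of the 55401 gene identifiers are not in the mm9 annotation used here (GENCODE M1). Places of genes are therefore those of RefSeq on GRCm38.p6, and GENCODE M1 served for mRNA lengths only. The use of strand in counting is not given in the sources used here.

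Groups and replicate numbers came from the sample titles. The filter of the paper, a count over 5 in 3 or more replicates, chose the genes for testing with edgeR 4.0.16 (quasi-likelihood test, TMM, R 4.3.3) and Benjamini-Hochberg adjustment at 0.1. Standard errors are the absolute log2 fold change divided by the square root of F. CPM used the column total and a pseudocount of 1, and were compared by exact permutation. Alternatives were DESeq2 1.42.0 and limma 3.58.1 with voom, other scalings and filters, a replicate block and leaving out replicates. Leaving out replicates for ratios of means, bounds and pathway lists was chosen after seeing the data. The fits were tested on simulated counts with large changes and a lower spread between replicates than in these data. The biological coefficient of variation here was 1.59, so that test says nothing of power at this spread. A further marker list is not reported here. Replicates are pools of different animals, and labels name no batch or cohort, so no within-batch value was made. The paper's reporting summary states that its RNA-seq used more than 1 cohort of mice. The chains and all gene lists were chosen with earlier results of these data known. Genes named outside the 9 chains are, in each list, the 2 with the smallest p in edgeR and the most abundant, Col24a1 excepted, together with the markers and the 5 nearest genes by pattern. Numbers were computed with Python 3.11.15, NumPy 2.4.6 and pandas 2.3.3, and drawn with Matplotlib 3.10.9.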

Additional observations from a re-analysis of the deposited data

Results flagged for a closer look

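Of 20 sets of 5 replicate values (each chain and the sum of the chains in each group, in CPM), 7 had a highest value far from the rest, by a gap over 0.71 of the range (Dixon's test, which by chance flags about 1 in 20 sets of normal values). CPM near the floor are not normal and the sums contain the chains, so that rate does not apply to these 20 sets. These were Col5a1 in naive mice (123 CPM in replicate 2, next 8.09), the sum of the 9 chains in naive mice (1282 CPM in replicate 2, next 311), and Col11a2 in naive mice (3.86 CPM in replicate 3, the others 0). In SCVS mice they were Col5a2 (42.0 CPM in replicate 3, next 1.51), Col11a1 (13.2 CPM in replicate 1, next 0.657), Col5a3 (6.50 CPM in replicate 4, next 0.501) and Col2a1 (6.24 CPM in replicate 2, next 0.401). These values lay in 6 different libraries, with naive replicate 2 holding 2 of them.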

How the results depend on the processing

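In edgeR with all replicates 0 of 14815 genes passed, against 114 in DESeq2 and 2 in limma with voom. At an unadjusted p under 0.05 edgeR had 460 of 14815 genes with the filter. Without it, where every gene with a read was tested, edgeR had 4941 of 29449. No chain passed an adjusted p of 0.1 under any of the alternatives run, and the smallest adjusted p of any chain was 0.253, for Col1a2 in DESeq2. Col1a1, Col1a2, Col3a1 and Col5a2 had a log2 fold change below 0 in all 18 alternatives. The number of lower chains, 8 of 9 in edgeR with all replicates, was 6 of 9 in limma with voom and 6 of 9 with the replicate block. With the block 47.1% of all tested genes were lower. It was 5 of 5 tested with at least 10 counts in 5 replicates, because only 5 passed that filter. Leaving out each replicate in turn moved the log2 fold change of Col2a1 between −3.003 and 0.79, of Col5a1 between −3.12 and 0.96, and of Col11a1 between −3.48 and 0.28. In limma with voom Col11a1 was at 0.75 and Col11a2 at 1.13, and with the replicate block at 0.31 and 3.54. The number of chains lower at an exact permutation p under 0.05, 2 with all replicates, was 1 to 3 with 1 replicate left out. It was 1 without any of naive replicates 1, 2 and 3 or SCVS replicates 1, 2 and 3, and 3 without naive replicate 5. It was 0 with the sign flips of same-numbered differences as a replicate block, where the smallest possible p is 0.0625. Deviations of same-numbered replicates correlated at −0.0152 to 0.147, which does not tell whether same-numbered samples were handled together. Counts per chain near the floor limit what can be seen for Col2a1, Col5a3 and Col11a2.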
